A study of Drosophila melanogaster with 8 samples.

Results

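The RNA of control ovaries was described from 2 RNA-seq libraries of Drosophila melanogaster, the only libraries labelled as controls among the 4 RNA-seq samples and the 8 samples of the study. Each library holds values for the same 13776 genes, and all of them were kept. Both libraries came from F1 females of the cross tj-Gal4 x #60000 (VDRC), aged 0 to 4 days. The driver tj-Gal4 is active in somatic cells of the ovary (its use here rests on the label, not on a reporter), and #60000 is a line of the Vienna collection that the labels use as the control. About 100 ovaries were pooled for a library, so a value is an average over ovarioles, egg chambers and the tissue around them. Poly(A)+ RNA was copied from random primers and read as single 50 nt reads, and the labels call the libraries biological replicates 1 and 2. The study as a whole asked what loss of HP1a in the somatic cells does to the ovary, and no knockdown library was used here. Since only a single group was described, no test was run. Values are given for each library, and folds carry counting intervals at 95%, which cover counting error and not the spread between animals.

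A Drosophila ovary is a bundle of ovarioles, in which egg chambers are made in the germarium at the tip and mature towards the oviduct. Each egg chamber holds an oocyte and its sister nurse cells, which are germline, inside a layer of somatic follicle cells. The nurse cells fill the oocyte with ribosomes, mitochondria and messages that the embryo will use before its own genes are switched on. The follicle cells first make yolk and vitelline membrane proteins and then, in the last stages, the layers of the chorion, the outer eggshell. A muscular sheath covers each ovariole and the whole ovary.

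The libraries held 20633184 and 21862077 counts, and 3 counts of a gene of median length corresponded to 0.0967 and 0.0931 TPM (transcripts per 1000000, a level per transcript length). At a level of at least 1 TPM in both libraries, 7615 genes were detected, which is 55.3% of the table. A further 544 genes reached 1 TPM in a single library, 405 of them in control 1 and 139 in control 2. No count fell on 2277 genes (16.5%) in either library. Levels of at least 10 TPM in both libraries were found for 5907 genes, at least 100 TPM for 1030 and at least 1000 TPM for 123. The median detected gene stood at 27.4 TPM in control 1 and 31.4 TPM in control 2. Across all genes the libraries correlated at r = 0.985 on the scale log2(TPM + 1) and at rho = 0.971 by rank. These correlations are across genes, which are not independent replicates.

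A small number of genes held most of the RNA. The 88 most abundant genes of control 1 and the 99 most abundant of control 2 made up 50% of the TPM, and 2429 and 2668 genes made up 90%. The 10 leading genes took 13.7% and 16.0%, and the 100 leading genes 53.0% and 50.4%. Counted as reads, without division by length, 428 and 498 genes were needed for 50%.

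Ribosomal protein genes led the table. The gene RpL41, which encodes a very short protein of the large ribosomal subunit, ranked first with 48116 TPM in control 1 and 43733 TPM in control 2. RpL39, another very short subunit, was second by the mean of the libraries, with 16495 and 15537 TPM, but below 3 vitelline membrane genes in control 2. The effective length behind these values was 71.2 nt for RpL41 and 42.2 nt for RpL39, since 249 nt are taken off the message for the positions where a fragment cannot start. With the full length as divisor, RpL41 stood at 15931 and 14373 TPM and RpL39 at 3601 and 3367 TPM. RpL41 remained far above RpL39 on both scales, but the size of its lead rests on this correction. Genes with an effective length under 100 nt numbered 56 and 49 among the detected genes of the libraries and held 8.05% and 7.45% of the TPM.

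Next to the ribosomal proteins in the first ranks stood 3 vitelline membrane genes of follicle cells. Vm34Ca was measured at 8285 TPM in control 1 and 23734 TPM in control 2, Vm26Aa at 7922 and 18751 TPM, and Vm26Ab at 8565 and 16857 TPM. All 3 were about 1.94 to 2.83 times higher in control 2, a gap described with the eggshell genes. The only member of the germline lists among the 30 genes leading by the mean of the libraries was dhd, which encodes the thioredoxin of the egg and ranked 26th by that mean, with 3780 TPM in control 1 and 6474 TPM in control 2. The 29th rank by mean was taken by awd, a nucleoside diphosphate kinase, at 5656 and 4336 TPM. By counts the first gene was FBgn0000556, for which the sources used here give no symbol, with 325281 and 289959 counts and 9109 and 7904 TPM.

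**Figure D1:**
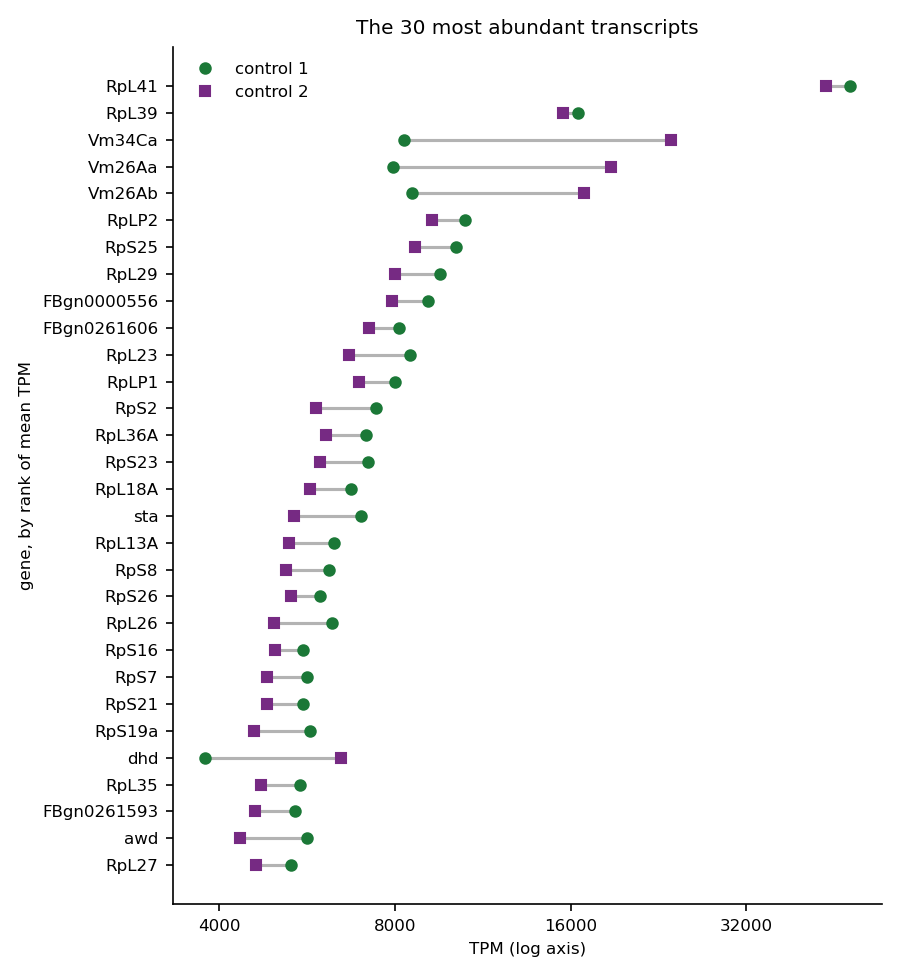
TPM (log axis) of the 30 genes with the highest mean over the control libraries, in order of that mean; circles are control 1, squares control 2, and the grey line joins the libraries. RpL41 stands first in both libraries, and 4 genes (Vm34Ca, Vm26Aa, Vm26Ab and dhd) lie to the right in control 2, while the other 26 lie to the left.

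As a family, cytosolic ribosomal proteins took 42.4% of the TPM in control 1 and 36.1% in control 2, a mean of 39.2% ± 4.46 (SD, n = 2). By counts the share was 16.1% and 13.1%, and over full lengths 34.5% and 28.8%. The family was matched by symbol, so any member among the 292 genes without a symbol is left out. Those genes held 5.60% of the TPM in control 1 and 5.10% in control 2. FBgn0261606, 1 of them, was among the leading genes at 8126 and 7224 TPM. RpL37-2, at 1.13 and 1.38 TPM on 4 and 5 counts, has a symbol but was not matched to the family either. Of the 86 genes matched, 82 were detected and 79 reached 100 TPM in both libraries, where their median was 4528 and 3799 TPM. The subunits were far from equal: RpL38 stood at 2737 and 2224 TPM, RpS20 at 4456 and 3384 TPM, and RpS25 at 10163 and 8644 TPM. All 82 detected members were lower in control 2, each by a small amount, with a median log2 difference of -0.26 against 0.05 for all genes compared. None was 2-fold apart, and the widest gap was that of RpS19b, a second copy of RpS19, at 7.01 and 3.61 TPM.

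In the machinery around the ribosome, of 44 translation initiation factor genes, 35 were detected, led by the helicase eIF4A at 1799 and 1591 TPM. Elongation factor eEF2, which moves the ribosome along the message, reached 2982 and 2502 TPM, eEF1gamma 2031 and 1788 TPM and eEF1beta 1981 and 1813 TPM. The listed elongation factor genes eEF1alpha1 and eEF5 were not matched to a symbol, so eEF2 leads only among the matched genes. The 71 mitochondrial ribosomal protein genes were all detected and together took 0.713% and 0.640% of the TPM. They stood well below their cytosolic counterparts, at medians of 94.0 and 81.4 TPM.

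Among the genes of oxidative phosphorylation encoded in the nucleus, 47 of 49 matched were detected, with 2.12% and 1.79% of the TPM. The highest was ATPsynC, the rotor ring of ATP synthase, at 2387 and 1975 TPM. The catalytic subunits blw and ATPsynbeta followed at 1262 and 1042 TPM and at 987 and 834 TPM. The undetected pair were ND-B8, at 0 counts, and Cyt-c-d, the cytochrome c known from the male germline, at 0.109 and 0.104 TPM. All 47 were lower in control 2, with a median log2 difference of -0.25. The 13 messages of the mitochondrial genome took 0.463% and 0.504%, with mt:CoIII first at 944 and 1104 TPM and mt:ND6 last at 17.4 and 13.1 TPM. They were not all lower as the nuclear genes were: 9 of 13 were higher in control 2, against 4396 of all 7981 genes compared. However, all 13 were lower when the libraries were scaled to the germline list.

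The 32 genes listed for the proteasome, the protease that degrades ubiquitin-tagged proteins, lay in a narrow band with a single exception. All were detected, 31 of them between 130 and 390 TPM, and the median was 191 TPM in control 1 and 208 TPM in control 2. Of the 32 listed, Prosalpha7 was the highest at 353 and 390 TPM, and Prosalpha1 stood apart at 14.4 and 14 TPM. The wider family, matched by symbol, held 48 genes, of which 34 were detected, and its highest member had a mean of 509 TPM. The list therefore leaves out an abundant gene with a subunit symbol. Whether related copies share reads with Prosalpha1 was not tested. The median log2 difference between the libraries was 0.03, or -0.29 when they were scaled to the germline list.

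Among chaperones the constitutive genes dominated. Hsc70-4, the main cytosolic Hsp70 protein of unstressed cells, stood at 3758 TPM in control 1 and 3269 TPM in control 2, and Hsp83, the Hsp90 of flies, at 2388 and 2022 TPM. All 7 subunits matched of the chaperonin CCT, which folds actin and tubulin, were detected between 281 and 507 TPM. The small heat shock proteins Hsp26 and Hsp27, which are known to be made in ovaries without stress, were measured at 451 and 857 TPM and at 447 and 1066 TPM, higher in control 2. The stress-induced genes were low. Hsp70Bb stood at 9.76 TPM in control 1 and 1.15 TPM in control 2, and Hsp68 at 5.47 and 1.13 TPM. Hsp70Ab was at 102 and 61.5 TPM, but the copies of Hsp70 are near-identical, so reads may be split between them in ways that the deposited counts do not show.

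The germline was followed with a list of 42 genes, of which 40 were matched (vas and nos are not analysed here) and 38 detected. It took 0.840% of the TPM in control 1 and 1.18% in control 2, a mean of 1.01% ± 0.242 (SD, n = 2), with dhd far above the other members. Without dhd the share was 0.462% and 0.534%. The median member stood at 52.1 and 61.6 TPM, above the median detected gene in both libraries. The members below 1 TPM were bgcn and ord, whose products act in the first germ cells of the germarium and in meiotic cohesion.

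Messages of oocyte patterning were among the highest of the list. The message osk, which places the germ plasm at the posterior of the oocyte, stood at 813 TPM in control 1 and 641 TPM in control 2. The yolk receptor gene yl was at 675 and 666 TPM. The translation regulators orb and BicC were at 271 and 224 TPM and at 281 and 372 TPM. By contrast bcd, which patterns the head end, stood at 25.2 and 49.8 TPM, and grk, the signal from oocyte to follicle cells, at 38.9 and 30.3 TPM. All 23 matched genes of the maternal axis list were detected, from capu, an actin nucleator gene, at 15.8 and 16.8 TPM up to osk.

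Genes used at egg activation and in the first embryonic divisions had the highest median of the germline lists, which share members. All 20 were detected, at a median of 143 TPM in control 1 and 204 TPM in control 2. CycB, the mitotic cyclin, followed dhd with 703 and 947 TPM, and CycA with 354 and 479 TPM. The subunits of the Pan Gu kinase were unequal, with gnu at 235 and 345 TPM, png at 53.7 and 90 TPM and plu at 35.3 and 49.1 TPM. The embryonic linker histone gene BigH1 stood at 244 and 396 TPM. All 20 were higher in control 2 by a median log2 difference of 0.59, and 17 were when the libraries were scaled to the germline list. The gene twe, a Cdc25 phosphatase of meiosis, showed the widest gap, at 16.9 and 35.4 TPM.

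Meiotic genes were much lower. Of 22 matched, 20 were detected, with medians of 9.59 and 11.2 TPM. The Polo inhibitor mtrm was an exception at 133 and 224 TPM. The genes of the synaptonemal complex, which holds homologous chromosomes together in the germarium, were at 21.2 and 18.6 TPM for c(3)G and 5.33 and 2.51 TPM for cona. The topoisomerase-like gene of meiotic breaks, mei-W68, was at 3.32 and 3.37 TPM. The genes ord and sunn were below 1 TPM in both libraries.

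The piRNA pathway, which silences transposons with small RNAs, was detected in full, with 21 of 21 matched genes. Levels ran from piwi, the nuclear Argonaute of germline and soma, at 98.5 and 76.9 TPM, down to cuff, a factor of piRNA cluster transcription, at 6.0 and 4.51 TPM. The helicase armi was at 74.4 and 43.5 TPM, the germline Argonaute aub at 71.5 and 49.9 TPM, and AGO3 at 22.3 and 25 TPM. The germline HP1 protein gene rhi stood at 14.2 and 20.5 TPM. The list had a median log2 difference between the controls of 0.02. In control 2, 12 members were higher and 9 lower, against 4396 and 3585 of all genes compared.

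The somatic follicle cells were far less visible in their regulators than in their products. The list of 21 follicle cell markers, of which 20 were matched, took 0.0454% of the TPM in control 1 and 0.0380% in control 2, and 19 members were detected. The median member was at 15.4 and 10.9 TPM. The transcription factor gene tj, which marks somatic cells of the gonad and gives the driver its name, stood at 70.1 and 49.8 TPM, ttk at 76.0 and 94.1 TPM, and Fas2, an adhesion protein gene of early follicle cells, at 55.5 and 26.4 TPM. The border cell factor gene slbo was at 2.58 and 2.38 TPM. Among genes of the germarium niche, fs(1)Yb was at 6.80 and 2.83 TPM, the ligand gene dpp at 2.50 and 1.99 TPM, and en at 0.0443 and 0.0646 TPM. Levels in a whole-organ library cannot tell fewer cells of a type from less RNA in each cell.

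The labelled tissue matched its markers. Besides the 38 germline and 19 follicle cell markers detected and the vitelline membrane genes, the yolk protein genes Yp1, Yp2 and Yp3 were all detected. The sheath muscle was also seen: 21 of 23 matched muscle genes were detected, led by Act57B at 465 and 203 TPM, Tm1 at 291 and 292 TPM and the troponin T gene up at 183 and 87.7 TPM. The flight muscle actin gene Act88F stayed below 1 TPM in both libraries. Of 7 matched basement membrane genes, 6 were detected, at list medians of 60.2 and 27 TPM, and Ndg stayed at 0.126 and 0.0575 TPM. The highest was Col4a1 at 546 and 244 TPM and vkg, the other type IV collagen chain, at 325 and 142 TPM.

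**Figure D2:**
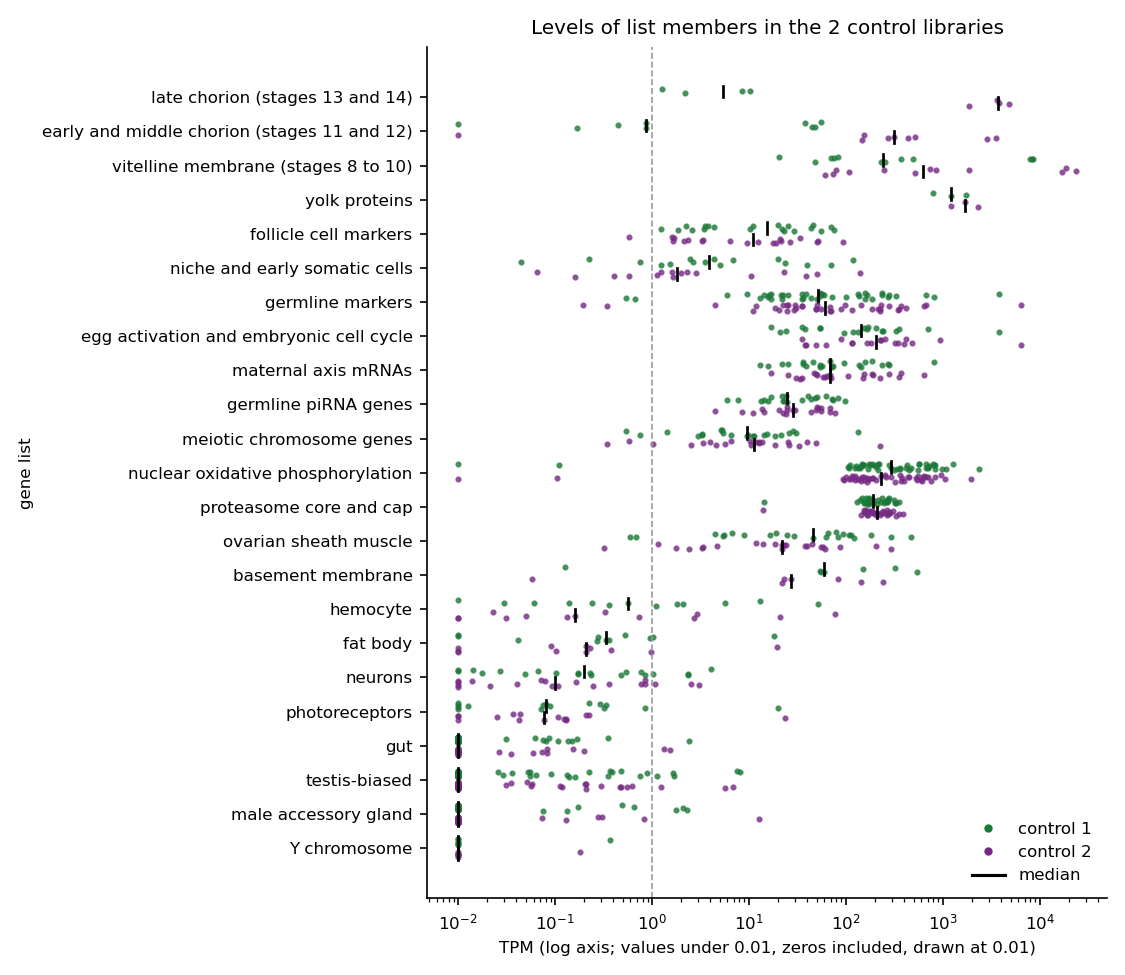
TPM (log axis) of the matched members of 23 gene lists in control 1 and control 2; each dot is a gene, black bars are medians, the dashed line marks 1 TPM, and values under 0.01 TPM are drawn at 0.01. The medians of the yolk, germline, respiration and proteasome lists lie to the right of the line and those of the gut, testis, accessory gland and Y chromosome lists to the left. Both chorion medians lie much further right in control 2, and that of the early and middle list is left of the line in control 1.

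Markers of other organs were largely absent. Of 28 gut genes, 1 was detected, and 14 had no count in either library. Of 11 fat body genes, 1 was detected, and this was Mtp, a lipid transfer protein gene, at 18 and 19.6 TPM. Of the larval storage protein genes, Lsp1gamma stood highest at 0.959 and 0.974 TPM. Of 20 neuronal genes, 3 were detected, with elav, the standard neuron marker, highest at 4.03 and 3.02 TPM. Of 15 photoreceptor genes, norpA alone was detected, at 19.9 and 23.5 TPM, and the rhodopsin genes ninaE, Rh2, Rh3, Rh4, Rh5 and Rh6 all stayed under 0.3 TPM. Of 6 genes of the sperm storage organs, 1 was detected.

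The hemocyte markers gave a mixed picture. Of 13 matched genes, 4 were detected: the scavenger receptor gene crq at 51.6 and 76.8 TPM, the GATA factor gene srp at 13 and 20.8 TPM, Pxn at 5.64 and 2.92 TPM and PPO3 at 2.11 and 2.72 TPM. The defining markers of hemocytes were Hml, NimC1, eater, Pxn and crq. Of these, Pxn and crq were detected, and Hml, NimC1 and eater stood below 0.6 TPM in both libraries. The part of blood cells in the level of crq and srp was not tested.

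Male genes were close to silent. None of 7 matched genes of the Y chromosome was detected, 6 of them had no count, and FDY reached 0.366 and 0.180 TPM. Of 22 accessory gland genes, 1 passed 1 TPM in both libraries, and this was Acp95EF, whose 1.77 and 12.6 TPM came from 0.7 and 4.8 expected counts over an effective length of 18.3 nt. Of 47 testis-biased genes, 3 were detected, namely bol at 8.13 and 6.85 TPM, tomb at 7.57 and 5.61 TPM and fzo at 1.69 and 1.25 TPM, and 22 had no count. In the sex determination pathway, Sxl, which is switched on in females, stood at 86.4 and 78.7 TPM, and tra, its target in the splicing cascade, at 31.4 and 28.1 TPM. The message msl-2, which encodes the male-limiting part of the dosage compensation complex, was low at 5.05 and 3.63 TPM, while its partner genes msl-1 and mle were at 43.4 and 57.2 TPM and at 35.4 and 29.1 TPM.

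Large families of sensory, cuticle and secreted proteins were mostly off. Of 60 odorant receptor genes, 3 were detected and 36 had no count. Or43b was the highest at 7.93 and 7.40 TPM. Of 59 gustatory receptor genes, 1 was detected (Gr39a, 1.89 and 1.57 TPM), and of 60 ionotropic receptor genes, 6. Of 29 pickpocket channel genes, ppk29 alone was detected, at 7.48 and 5.97 TPM. Of 47 odorant-binding protein genes, 4 were detected. Obp19c, at 21.3 TPM in control 1 and 226 TPM in control 2, had the widest gap between the libraries among the detected genes of these families. Of 92 cuticular protein genes of the Cpr family, 3 were detected, and none of the 22 Osiris, 16 Jonah protease, 8 Turandot or 13 Stellate genes passed 1 TPM in both libraries. Detoxification families lay on both sides of the 55.3% detected over all genes. Of 82 cytochrome P450 genes, 30 were detected, a smaller share, with Cyp6a19 at 62.2 and 121 TPM. Of 35 glutathione S-transferase genes, 26 were detected, a larger share, with GstD1 at 421 and 585 TPM.

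In many sets of related genes, a single member made up most of the summed TPM. The shares below are of the summed TPM of the genes in a set, and copies that are alike in sequence may share reads. RpS14a made up 64.0% in control 1 and 63.7% in control 2 of its pair, whose genes are neighbours and near-identical. RpL24-like, a protein of ribosome assembly, reached 17% and 17.8% of its pair. The alternative copies RpL22-like and RpS19b were almost absent, at 0.0135% and 0.00432% and at 0.123% and 0.0787% of their sets. For RpS28, RpL10A and 5 proteasome subunits, no alternative copy passed 0.0917 TPM in either library.

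The maternal copy alphaTub67C made up 15.6% and 21.2% of alpha-tubulin, with alphaTub84B at 69.2% and 66.9%. The Cdc25 phosphatase stg, of mitosis, made up 90% and 83.8% of its pair with twe. The egg thioredoxin dhd made up 94.1% and 95.8% of its set, and TrxT, the testis copy, stayed below 1 TPM. Among the actins the cytoplasmic gene Act5C made up 60.6% and 77.1%, and the muscle gene Act57B 22% and 9.97%. Among HP1 genes, that of HP1a, the main heterochromatin protein, stood at 303 and 285 TPM, or 72.5% and 69.8% of the set. HP1b was at 55.8 and 55.4 TPM, HP1c at 43.8 and 46.4 TPM, and HP1e, known from the testis, had no count.

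**Figure D3:**
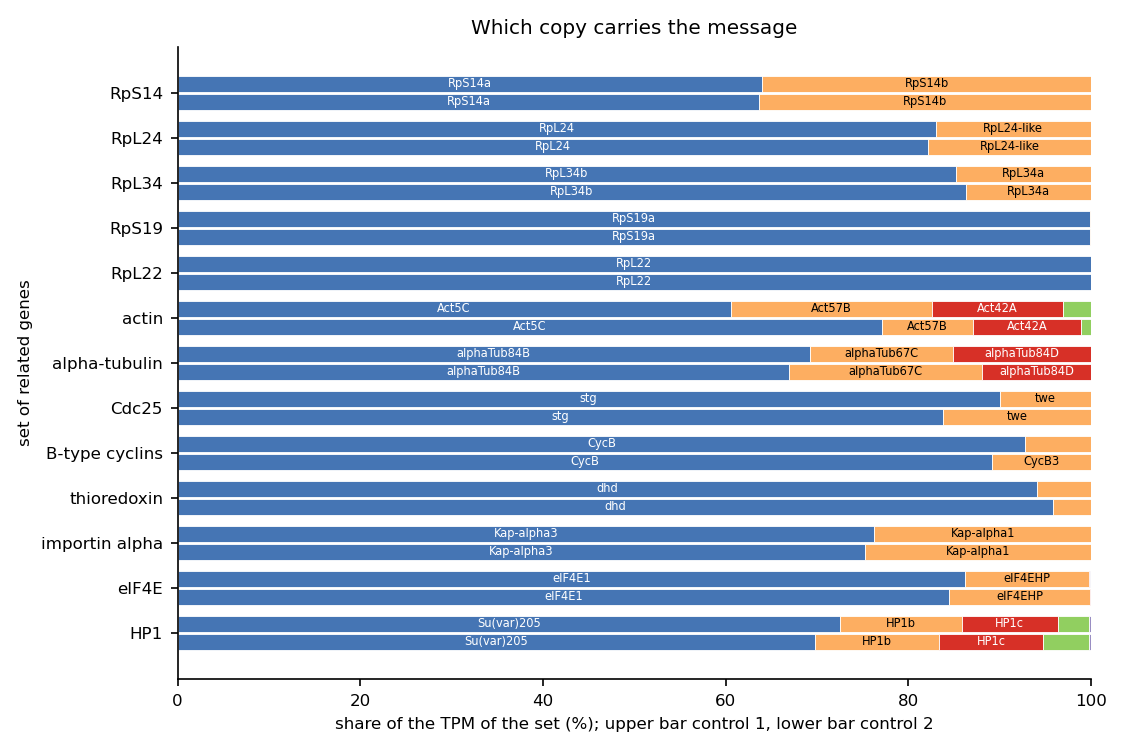
Share of the summed TPM of 13 sets of related genes that each member made up, in percent; the upper bar of a pair is control 1 and the lower control 2, and members above 9% are named. RpS19a, RpL22 and dhd fill most of their bars, whereas RpS14 and the actins are divided among copies.

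Histone messages of the replication-dependent cluster, which as a class lack a poly(A) tail in most cells, were still found in the poly(A)+ libraries. Of 31 copies, 13 passed 1 TPM in both, and together they took 0.124% of the TPM in control 1 and 0.303% in control 2. The reads were spread very unevenly over copies, with His2A:CG33808 at 811 and 1994 TPM and His4:CG33907 at 0 counts, and near-identical copies share reads. The replacement histone genes, whose messages carry tails, stood at 765 and 747 TPM for His2Av and 683 and 645 TPM for His3.3B.

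Genes known only by a CG number were also found among the abundant messages. By the mean of the libraries CG6770 was the highest of them, at 1477 and 1959 TPM, followed by CG43134 at 563 and 2144 TPM, CG13364 at 1498 and 1184 TPM, CG2852 at 888 and 1013 TPM and CG11267 at 959 and 808 TPM. The effective length of CG43134 was 88.3 nt, and over its full length it stood at 220 and 840 TPM.

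By chromosome, 1363 of 2128 genes of the X (64.1%) were detected, against 6000 of 11252 on the large autosomal arms (53.3%). The arms taken singly were 51.2% for 2L, 55.3% for 2R, 53.1% for 3L and 53.5% for 3R, all below the X. On chromosome 4, the small and largely heterochromatic autosome, 54 of 77 genes (70.1%) were detected. The median detected gene of the X stood at 30.5 and 35.2 TPM, that of the autosomal arms at 26.5 and 30.7 TPM, and that of chromosome 4 at 18 and 23.8 TPM. Chromosome 4 was led by RpS3A at 4383 and 3924 TPM and ATPsynbeta, and none of the 11 genes of the Y placed on it was detected. These are shares of genes and not replicated measurements.

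The controls were then set against each other over 7981 genes with at least 50 counts in the 2 libraries together, as the ratio of counts scaled by the trimmed mean of M values (TMM). The median gene differed by 0.05 in log2, and the median size of a difference, whatever its sign, was 0.26. That size depended on depth. It was 0.65 for genes with 50 to 200 counts, of which 31.0% were 2-fold apart or more, and 0.23 above 10000 counts, of which 2.66% were. At 2-fold, 206 genes were higher in control 2 (2.58% of those compared) and 357 lower (4.47%). At 4-fold, 81 were higher (1.01%) and 46 lower (0.576%), and at 8-fold 53 were higher (0.664%) and 20 lower (0.251%). When the libraries were scaled to the germline list in place of TMM, the median of all genes compared moved to -0.28, so lists with a positive median under about 0.33 were lower on that scale, and lists with a negative median stayed negative. Both libraries carry the same label, and neither can be called the usual state of the ovary from these data.

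Of the lists, the eggshell lists had the widest gaps, and their medians were wider the later the stage at which the list is known to be made. The 25 eggshell genes took 2.66% of the TPM in control 1 and 8.62% in control 2, a mean of 5.64% ± 4.21 (SD, n = 2). Of 24 with at least 50 counts, 20 were 2-fold higher in control 2 (background 2.58%) and none was 2-fold lower. The lists, here and in the muscle, follicle cell and niche comparisons below, were chosen with earlier results of these data known. Their counts beside a background are therefore description and not independent support.

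The late chorion genes, made in stages 13 and 14, were nearly silent in control 1. Cp15 had 12 counts in control 1 and 26703 in control 2, which is 2.21 and 4787 TPM and a ratio of 2135 (1222 to 4132 by counting error). Cp16 had 7 and 10638 counts, Cp18 70 and 31700, and Cp19 84 and 30619. The median log2 difference of these 4 genes was 9.58, and they lie side by side on 3L in the cluster known to be amplified in follicle cells.

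The early and middle chorion genes, of stages 11 and 12, differed by a median log2 of 6.95 over the 8 with enough counts. Cp36 was at 48.0 TPM in control 1 and 2865 TPM in control 2, a ratio of 58.9 (55.0 to 63.1), and Cp38 at 38.3 and 3549 TPM, a ratio of 91.6 (85.4 to 98.5). Their neighbours Cp7Fb and Cp7Fc differed less, at 44.5 and 434 TPM and at 55.8 and 513 TPM. The yellow-family gene yellow-g was at 0.448 and 317 TPM. Femcoat rested on 2 counts in control 1 against 1805, a ratio of 866 whose interval ran from 239 to 7154. Pxd, a peroxidase gene assigned to chorion hardening, had no count in either library.

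The vitelline membrane genes, of stages 8 to 10, were abundant in both libraries and differed by a median log2 of 1.19. Of 12 genes, 8 were 2-fold higher in control 2, from psd (231 and 516 TPM) to Fcp3C (20.7 and 109 TPM). Vm26Ab, at a ratio of 1.94, was just short of 2-fold. The remaining 3, fs(1)N, fs(1)M3 and clos, differed by 0.05, -0.33 and -0.07 in log2. The yolk protein genes Yp1, Yp2 and Yp3 were higher in control 2 by 0.39 to 0.62, with Yp1 at 1212 and 1707 TPM.

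**Figure D4:**
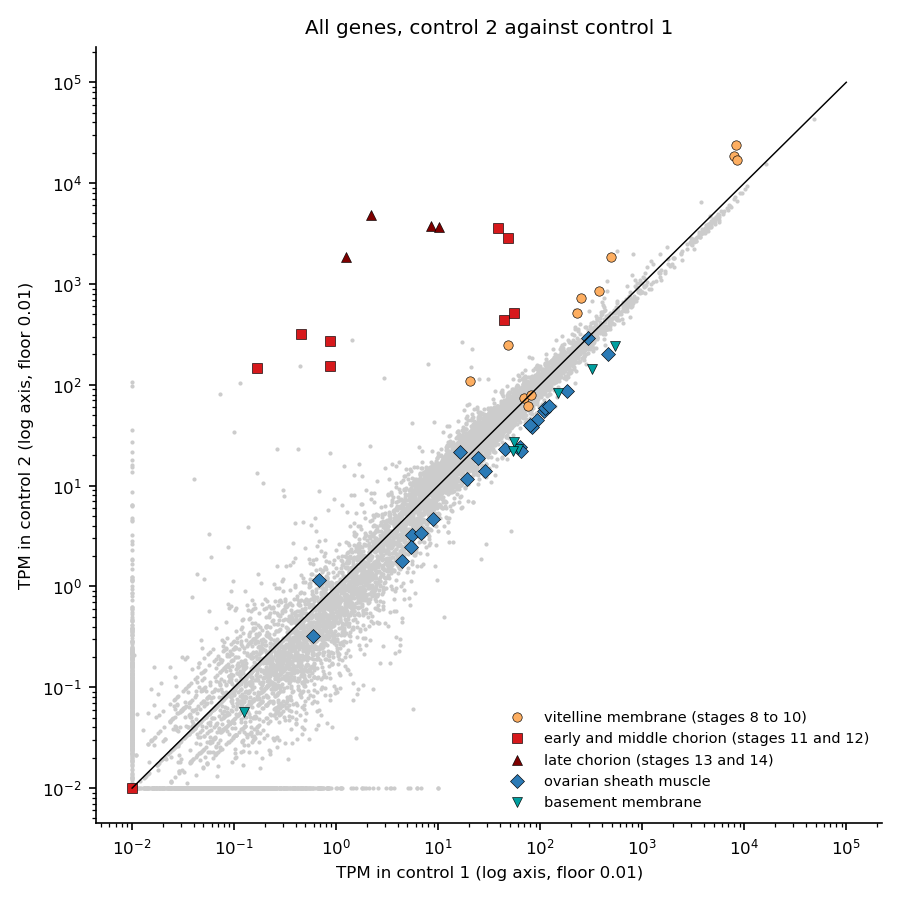
TPM in control 2 against TPM in control 1 for all 13776 genes (both axes log, values under 0.01 drawn at 0.01; the line marks equal levels). Late chorion (triangles) and early and middle chorion genes (squares) lie far above the line, 10 of 12 vitelline membrane genes (circles) above it, and most sheath muscle (diamonds) and basement membrane genes (inverted triangles) below it.

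Of the 81 genes that were 4-fold or more higher in control 2, 14 were on the eggshell lists and 67 were not. Together the 81 genes made up 0.0450% of the TPM in control 1 and 2.53% in control 2. In control 1, 48 of them were below 1 TPM and 14 had no count after rounding, and 45 have only a CG number for a symbol. The 81 genes include replication-dependent histone copies, which share reads, and another copy, His2B:CG33902, was lower in control 2 by a ratio of 21.1. Mucin-like genes were among the widest gaps. Muc4B had no count in control 1 and 2982 in control 2, at least 954-fold higher when control 1 is set at the floor of 3 counts, and Mur11Da was at least 253-fold higher on 791 counts. CG32642 had 0 and 2375 counts, at least 759-fold higher. CG15570 had 6 and 6907 counts, a ratio of 1104 (507 to 3010), CG13114 had 37 and 7452, a ratio of 193 (140 to 275), and CG13084 rested on 3 counts against 2816, a ratio of 900 (308 to 4369). Obp19c, already named for its gap, had 240 and 2605 counts, a ratio of 10.4.

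Many of these genes were neighbours in the order of the genes compared, where genes with too few counts are passed over. Of 80 placed among the tested genes of an arm, 31 stood next to another of the set, in 9 runs. No background share was computed for this count. The chorion cluster of the X gave a run of 5 from Cp7Fa to Cp38, and that of 3L a run of 4 from Cp18 to Cp16. Other runs held CG15571, CG15570, Femcoat and Muc4B on the X, CG32642, Mur11Da, CG15721 and CG12716 on the X, and CG31928, CG31926 and CG31661 on 2L. A run of 5 histone copies on 2L rests on genes that share reads. The X held 25 of the 81 genes, or 1.74% of its genes compared, and 2L held 25, or 1.84%, against 1.01% of all genes compared. Those of 2L include the histone copies. The shares were 1.01% on 3L, 0.446% on 2R and 0.428% on 3R.

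Genes of the sheath and of the matrix were lower in control 2. Of 21 muscle genes compared, 19 were lower, 13 of them 2-fold or more (background 4.47%), and the median log2 difference was -1.01. Many of these lie close to 2-fold, since 7 passed it on the scale log2(TPM + 1). Mhc, the muscle myosin heavy chain gene, was at 62.7 TPM in control 1 and 24.3 TPM in control 2, a ratio of 2.61 (2.51 to 2.72). Act57B was lower by a ratio of 2.32. The exceptions were Tm1, whose gene also makes cytoplasmic tropomyosins, at 0.08 and the muscle transcription factor gene Mef2 at 0.39. All 6 basement membrane genes with enough counts were lower, 5 of them at least 2-fold, with a median of -1.19. SPARC, at 149 and 82.5 TPM, was the sixth. Of 7 hemocyte markers with enough counts, 4 were lower in control 2, against 3585 of all 7981 genes compared. These were Hml by -1.44, Pxn by -0.98, Sr-CI by -1.28 and PPO2 by -1.74 in log2, and crq, srp and PPO3 were higher. No hemocyte marker was 2-fold lower on the scale log2(TPM + 1). The 13 matched hemocyte markers summed to 0.00767% and 0.0105% of the TPM, with He at 0 counts, and their part in the matrix difference was not tested.

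Regulators of the soma were also lower in control 2, while germline messages were on balance higher. Of 20 follicle cell markers, 16 were lower, 5 of them 2-fold or more (3 on the TPM scale; background 4.47%), with a median of -0.38. The gene eya, which represses polar cell fate, was at 45.7 and 21.0 TPM. In the niche list, 13 of 14 were lower, 6 of them 2-fold or more (2 on the TPM scale; background 4.47%), with a median of -0.92, and 4 genes belong to both lists. The ligand genes Wnt4 (4.34 and 1.67 TPM) and hh (1.23 and 0.585 TPM) were among them. In the germline list, 26 were higher and 13 lower, against 4396 and 3585 of all genes compared, with a median of 0.33 that is 0 by construction on the germline scale, and only twe and bgcn were 2-fold apart. Most eggshell genes, among them the chorion genes made by follicle cells, moved the other way, with 22 of 24 compared higher in control 2. The share of germline, follicle or sheath RNA in each library and its part in these differences was not tested.

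**Figure D5:**
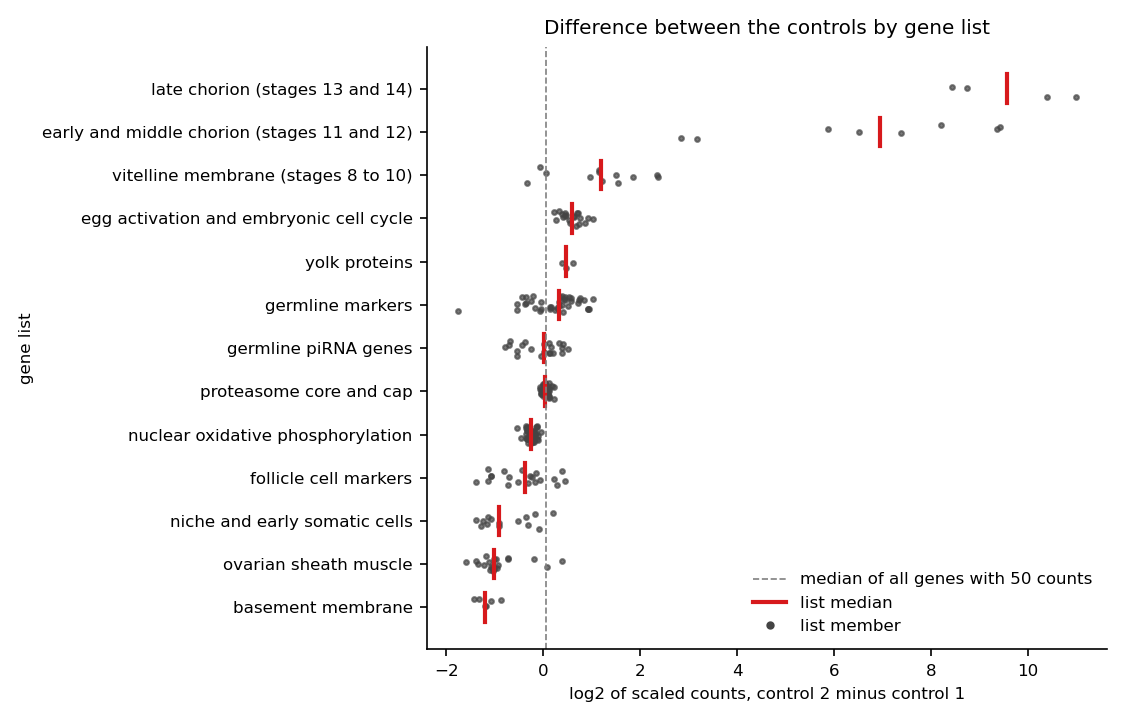
Log2 of scaled counts, control 2 minus control 1, for members of 13 gene lists with at least 50 counts; dots are genes, red bars list medians, and the dashed line is the median of all genes compared, 0.05. Chorion lists lie far to the right with medians of 9.58 and 6.95, the proteasome list at 0.03, and the sheath muscle and basement membrane lists to the left at -1.01 and -1.19.

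Outside these lists, CG14292, at 51.3 TPM in control 1 and 3.59 TPM in control 2, had the widest gap of the genes lower in control 2 with at least 200 counts, a ratio of 14.5 (10.0 to 21.8). Cyp4g1, a cytochrome P450 gene known from the oenocytes, which make cuticular hydrocarbons, was at 26 and 1.86 TPM, a ratio of 14.2. The mucin-related genes Mur18B (29.7 and 2.65 TPM) and Muc11A (5.29 and 0.650 TPM) were lower, opposite to Muc4B and Mur11Da. Among the stress genes, Hsp70Bb differed by a ratio of 8.52 (6.36 to 11.6). Of its near-identical copies with enough counts, Hsp70Bc, Hsp70Ab and Hsp70Aa were also lower, but Hsp70Bbb was higher, at 5.47 and 6.74 TPM. The ratio of a single copy depends on how reads were split between copies, which its interval does not cover. Of the 46 genes at 4-fold lower, 3 chosen after their values were seen, FASN2 (0.955 and 0.104 TPM), Oatp58Dc (1.31 and 0.150 TPM) and Irk3 (2.86 and 0.259 TPM), are known from oenocytes or Malpighian tubules. The part of such tissue in these libraries was not tested.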

How the data were processed

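Poly(A)+ RNA of 2 control libraries was analysed. The deposited gene tables hold TPM and expected counts (estimated reads per gene, per the file headers) with a length and an effective length, in nt, for 13776 genes. The submitters' processing notes name Salmon, HISAT2, DESeq2 and HTSeq and the builds dm3 and BDGP5, without versions or roles. The deposited TPM sum to 1000000 in each library. The table's effective length equals the length behind the deposited TPM within 1% for 43.1% and 42.8% of the genes at 1 TPM or more, so lengths were taken from TPM and counts instead.

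Symbols and arms came from a RefSeq gene table of Release 6, which gave a symbol to 13484 genes and none to 292. Its positions served only for the order of neighbouring genes, and none is printed. With no strand or multimapping rule stated, overlapping genes and near-identical copies are uncertain. No sequence was used here.

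Expected counts were rounded to whole numbers, scaled by TMM (edgeR 4.0.16, R 4.3.3; factors 1.01 and 0.992) and compared as log2 ratios with a prior count of 0.5. Counting intervals at 95% are exact binomial (scipy 1.17.1, Python 3.11.15). The floor is 3 counts per library. The ratio and its interval were checked on simulated counts.

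There were 30 gene lists, 31 families matched by symbol and 32 sets of related genes. The members and lists were chosen with earlier results of these data known. By rule the text names the 30 highest genes by mean TPM, the 15 largest ratios each way with at least 200 counts, up to 6 highest and 3 lowest members of each list, family and set, 5 genes with a CG number, the leading genes of chromosome 4 and the Y, and defining markers. Other members, and genes of the runs, were chosen after their values were seen. Alternatives were other scales, count minimums, detection thresholds, measures of abundance and each library alone.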

Additional observations from a re-analysis of the deposited data

How the results depend on the processing

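No paired analysis was possible because a single group of 2 libraries was described and no result comes from a test. Counted as reads, 50% of the RNA took 469 genes in place of 94, and the shares of ribosomal proteins, germline markers, follicle cell markers, nuclear oxidative phosphorylation and mitochondrial messages were 14.6%, 1.64%, 0.170%, 1.27% and 0.315%. Over full lengths, an alternative chosen after seeing the data, 148 genes held 50%, and ribosomal proteins and follicle cell markers took 31.6% and 0.0579%. Without dhd, germline markers took 0.498%. Scaled to the germline list, 128 genes were 2-fold higher and 666 lower in control 2, 80 were 4-fold lower, and the median differences of the germline, follicle cell and ribosomal lists were 0, -0.71 and -0.59. Genes 2-fold lower numbered 126 by TPM with a pseudocount of 1, 842 with a minimum of 10 counts and 125 with 200; at 4-fold they numbered 9, 198 and 13. At 2 TPM, 59.8% of X genes and 50.3% of autosomal genes were detected.

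With each library alone, the ranges were 65.4% to 67.0% for the X, 54.3% to 56.3% for the autosomal arms, 7754 to 8020 genes detected, 2692 to 2985 genes at 0 counts, 88 to 99 genes for 50% and 2429 to 2668 for 90%. Shares ran from 36.1% to 42.4% for ribosomal proteins, 2.66% to 8.62% for eggshell genes, 0.840% to 1.18% for germline and 0.0380% to 0.0454% for follicle cell markers, 1.79% to 2.12% for oxidative phosphorylation and 0.463% to 0.504% for mitochondrial messages. The other 87 alternative values stayed within the spread of the controls or 1.5 times the count. Of the values of the 10 leading genes, 7 moved beyond the spread of the controls over full lengths (RpL41 to 15152 TPM, RpL39 to 3484 TPM and RpL29 to 2763 TPM among them) and 23 values did not move. These 23 include the values of each library alone, which lie within the spread of the 2 by construction and could not move. Over full lengths only Vm34Ca, Vm26Aa and Vm26Ab stayed within it. The 87 values also include shares of each library alone, to which the same applies. The causes were not tested. The TPM recomputed with the deposited length and the promoter motifs with their alternatives were not run. Genes under about 0.1 TPM are at the limit of depth.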

Other observations

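The deposited lengths did not match the deposited TPM for many genes. Among genes at 1 TPM or more, the effective length behind the TPM exceeded the deposited one by over 1.5 times for 47.4% in control 1 and 48.2% in control 2, by up to 17.6 and 17.9 times. A TPM recomputed from the deposited lengths would therefore differ from the deposited TPM for these genes.

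Further families were detected nearly in full. All 21 nucleoporin genes were detected, with Nup358 at 109 and 118 TPM. All 12 cyclin genes, some of them also on the egg activation list, were detected, and 11 were higher in control 2, or 5 when the libraries were scaled to the germline list. Of 27 Rab GTPase genes, which direct membrane traffic, 23 were detected, led by Rab11 at 207 and 243 TPM. Of these Rab genes, 21 were higher in control 2, or 7 on the germline scale. Over all 7981 genes compared, 4396 were higher in control 2 on the TMM scale. The ring canal and nurse cell transport list was detected in full, with the profilin gene chic highest at 892 and 924 TPM and kel, the Kelch protein gene of the ring canal, lowest at 12.4 and 15.7 TPM.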
